A study of Mus musculus with 8 samples.

Results

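The interleukin and tumour necrosis factor (TNF) families were examined in the lungs of mice transgenic for Fra-2, the AP-1 transcription factor encoded by Fosl2. Members were taken by symbol: every named gene on the arrays whose symbol starts with Il and a digit, or with Tnf. This gave 37 genes of 8741 named genes, carried by 49 of 20794 probes, with 16 Il symbols and 21 Tnf symbols. By role they were 10 ligands, 19 receptors or receptor chains, 2 secreted inhibitors and 6 other genes named after the families. A further 20 probes of family genes, covering 19 genes with no other probe, had annotation numbers for which the gene names could not be matched to the values, and they are not analysed here.

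The transgenic group was lung of 4 male mice, 14 weeks old, carrying a Fosl2 (fra-2) transgene on a C57BL6 x CBA background. The comparison RNA was lung RNA of 4 wild-type males, also 14 weeks old and on that background, combined into 1 pool. Each transgenic mouse was hybridised against the pool on 2 two-colour arrays with the dyes exchanged, 8 arrays in all, so n = 4 mice and the pool counts as 1 control sample. The labels do not name the promoter that drives the transgene. Animals aged 6 and 10 weeks also belong to the study and are not analysed here.

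All values below are log2 ratios of transgenic lung over wild-type pool, averaged over the 2 arrays of a mouse and over the probes of a gene. A ratio gives no expression level, so genes cannot be ranked by abundance, and in whole lung fewer cells of a type and less RNA per cell cannot be told apart. The direction is likely only: it rests on the order of the channels in the labels, and with the opposite sign higher and lower would exchange throughout. Fosl2 itself carries no name on these arrays, so the transgene could not be checked. A gene was called changed at an adjusted p under 0.05 (limma on the 4 mouse means against 0, Benjamini-Hochberg over 8692 named genes). Because the wild-type side is 1 pool, the p-values hold no wild-type spread.

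Arrays gave 20585 to 20729 usable ratios, with medians between -0.09 and 0.01. The Cy3 array of mouse 4 stood apart, with an interquartile range of 0.91 against 0.45 to 0.52 on the other 7, and it correlated at 0.39 with the Cy5 array of the same mouse. The other 3 pairs correlated at 0.59 to 0.69. Without that array the counts of called members given below stayed at 11 higher and 3 lower, but 11 genes were shared: Tnfrsf19, Tnfrsf1b and Tnfsf10 lost their calls, and Il17rd, Il24 and Tnfaip8l2 gained one. Ratios alone cannot show that the tissue is lung. Among the alveolar type 2 markers measured, the surfactant gene Sftpc was at -0.13 and Sftpb at 0.37.

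Interleukins and TNF superfamily proteins are secreted or membrane-bound signals between immune, epithelial and stromal cells. Interleukin receptors of the haematopoietin type are assembled from a ligand-specific chain and a shared chain and act through JAK kinases and STAT factors. Receptors for IL-1, IL-18 and IL-33 act through MyD88 and IRAK kinases. TNF receptors recruit TRAF adaptors or death domain proteins and lead to NF-kappa-B activation or to cell death. Both families also hold decoys and antagonists, such as Il1rn and Il18bp, that bind a receptor or a ligand without signalling.

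Of the 37 members, 14 changed: 11 were higher in transgenic lung and 3 lower. The 14 are 37.8% of the members, beside 31.8% of all named genes. The 11 higher members are 29.7%, beside 13.4% of all named genes, and the 3 lower ones are 8.11%, beside 18.3%. The higher ones were Il3ra, Il18r1, Tnfrsf25, Il34, Tnfrsf13b, Tnfsf10, Tnfrsf11a, Il4i1, Il17rc, Tnfrsf1b and Tnfaip2. The lower ones were Il1b, Il6st and Tnfrsf19. Only Il3ra was past 2-fold, a size that 1.63% of all named genes reached with a call.

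The calls of Il3ra, Tnfrsf25 and Il34 held under all 15 alternatives run for them, and each of the other 11 called members lost its call under at least 1. Without mouse 1 the count was 5 higher and 2 lower, without mouse 2 it was 9 and 0, without mouse 3 it was 5 and 1, and without mouse 4 it was 9 and 3. Fewer mice also lowered the count over all named genes, to 604 higher without mouse 1, against 1169 with all 4 mice.

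**Figure D1:**
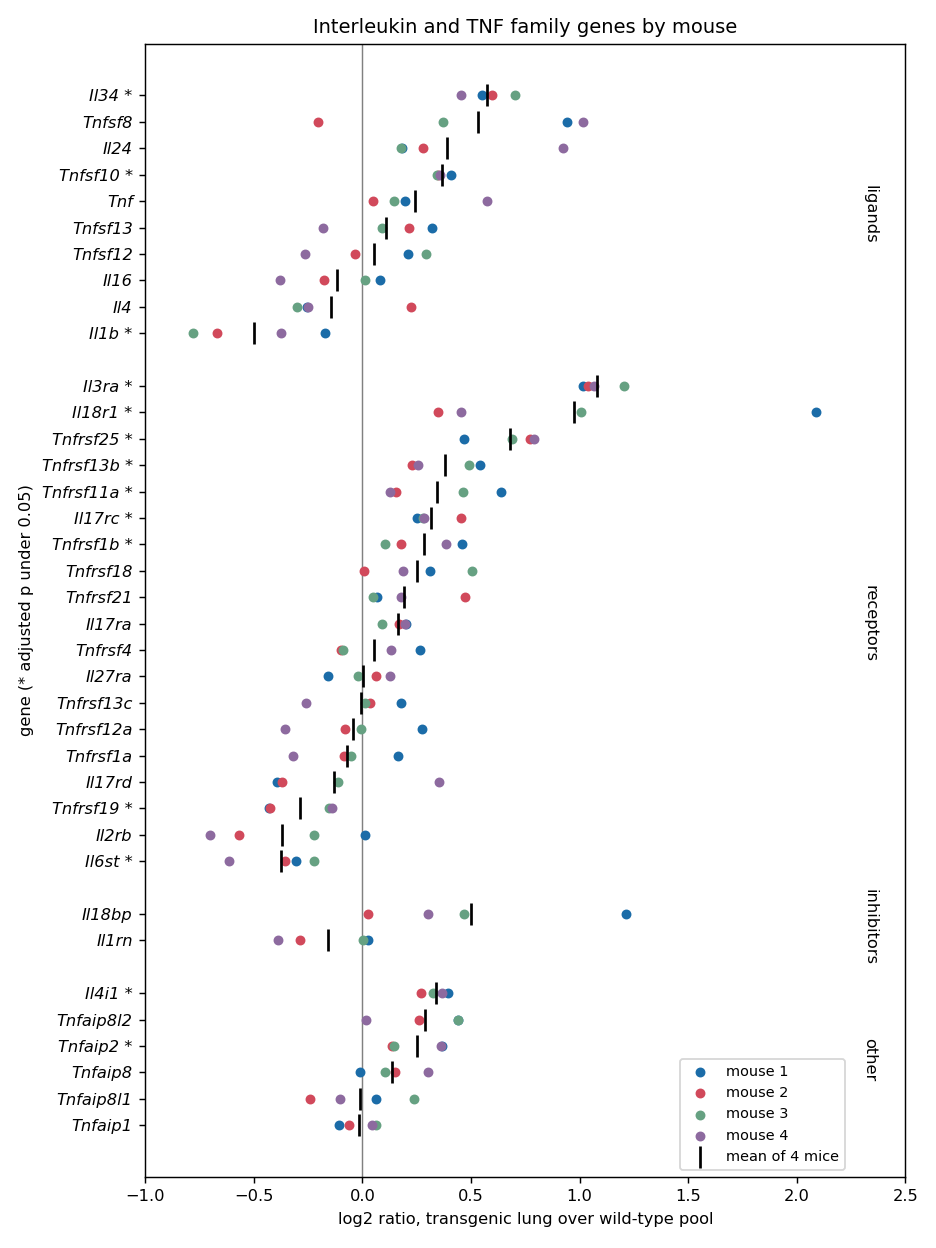
Log2 ratio of transgenic lung over wild-type pool (horizontal axis) for each of the 37 members, grouped by role and ordered by mean; coloured points are the 4 mice, black ticks their mean, and asterisks mark adjusted p under 0.05. Il3ra lies at 1.01 to 1.21 in the 4 mice, while Il18r1 is spread over 0.35 to 2.09.

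The regions upstream of the 3 highest and 3 lowest called members are shown because these genes moved most in each direction and Fra-2 is a DNA-binding factor. They are RefSeq sequences of build GRCm38.p6, read 5′ to 3′, from 250 bases before to 50 bases after the first start that the table lists for the gene. Capitals mark a match to 1 of 3 motifs searched on both strands: TGANTCA (AP-1), TTCNNNGAA (STAT) or GGANTTTCC (NF-kappa-B).
Il3ra promoter, chr14:14346245-14346544, plus strand: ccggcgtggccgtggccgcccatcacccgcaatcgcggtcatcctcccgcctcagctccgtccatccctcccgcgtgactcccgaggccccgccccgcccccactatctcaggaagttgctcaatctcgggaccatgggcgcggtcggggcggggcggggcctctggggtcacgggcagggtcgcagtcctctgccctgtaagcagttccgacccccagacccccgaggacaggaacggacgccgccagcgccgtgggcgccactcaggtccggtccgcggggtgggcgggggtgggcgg
Il18r1 promoter, chr1:40465302-40465601, plus strand: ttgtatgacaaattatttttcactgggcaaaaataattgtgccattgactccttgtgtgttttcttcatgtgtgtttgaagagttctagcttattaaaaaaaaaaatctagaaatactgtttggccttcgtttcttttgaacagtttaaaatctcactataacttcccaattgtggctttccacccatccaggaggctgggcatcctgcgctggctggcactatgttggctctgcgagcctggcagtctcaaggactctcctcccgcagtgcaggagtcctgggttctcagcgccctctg
Tnfrsf25 promoter, chr4:152115684-152115983, plus strand: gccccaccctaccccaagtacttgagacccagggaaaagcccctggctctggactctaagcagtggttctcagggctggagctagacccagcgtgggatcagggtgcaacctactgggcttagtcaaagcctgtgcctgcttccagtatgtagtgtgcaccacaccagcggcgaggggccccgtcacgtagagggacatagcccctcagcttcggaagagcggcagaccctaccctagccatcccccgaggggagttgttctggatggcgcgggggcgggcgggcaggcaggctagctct
Il1b promoter, chr2:129371090-129371389, minus strand: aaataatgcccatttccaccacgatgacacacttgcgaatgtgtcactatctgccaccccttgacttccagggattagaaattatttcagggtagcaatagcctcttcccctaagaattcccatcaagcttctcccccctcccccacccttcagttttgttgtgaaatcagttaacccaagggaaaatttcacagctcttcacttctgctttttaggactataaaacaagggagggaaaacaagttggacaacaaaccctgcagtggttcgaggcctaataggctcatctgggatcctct
Il6st promoter, chr13:112463820-112464119, plus strand: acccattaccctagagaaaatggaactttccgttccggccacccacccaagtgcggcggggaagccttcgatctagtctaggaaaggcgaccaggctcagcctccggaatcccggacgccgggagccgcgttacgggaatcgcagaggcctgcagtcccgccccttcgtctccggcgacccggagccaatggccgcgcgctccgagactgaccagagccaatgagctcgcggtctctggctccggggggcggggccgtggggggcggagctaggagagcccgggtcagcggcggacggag
Tnfrsf19 promoter, chr14:61046806-61047105, minus strand: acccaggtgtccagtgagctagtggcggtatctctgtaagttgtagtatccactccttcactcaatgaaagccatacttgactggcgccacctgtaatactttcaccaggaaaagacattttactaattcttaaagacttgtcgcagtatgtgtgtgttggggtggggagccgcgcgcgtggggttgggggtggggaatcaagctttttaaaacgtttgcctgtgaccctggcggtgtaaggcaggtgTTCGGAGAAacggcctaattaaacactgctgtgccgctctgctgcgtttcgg

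The sequence upstream of Tnfrsf19 held 1 STAT match, starting 2 bases before the start, and the other 5 held no match to any of the 3 motifs. Over all 30 members with a promoter in the table, 3 held TGANTCA (Il16, Il1rn and Tnfsf13), which is 10% beside 7.81% of all 32851 promoters. TTCNNNGAA was found in 5 (Il4, Tnfrsf18, Tnfrsf19, Tnfrsf1a and Tnfrsf1b), 16.7% beside 8.3%, and GGANTTTCC in 1 (Tnfaip2), 3.33% beside 1.25%. Of these 9 matches, those of Tnfrsf19, Tnfrsf1b and Tnfaip2 lie at called members, beside 37.8% called among all members. Each member was counted at the first start listed for it, while the 32851 promoters hold every listed start. The paired shares are therefore not over like units. A match is a description of letters in a window of 300 bases.

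Among the 10 ligands, 2 rose and 1 fell, which is 30% called, near the 31.8% of all named genes. Il34, which encodes the second ligand of the CSF-1 receptor of macrophages, was at 0.55, 0.59, 0.70 and 0.45 in mice 1 to 4. All 8 arrays were above 0, from 0.22 to 0.86. Il34 rose 1.49-fold, with a mean of 0.58 ± 0.10 over the mice (SD, n = 4, adjusted p = 0.00278). Tnfsf10, which encodes the death receptor ligand TRAIL, was at 0.41, 0.35, 0.34 and 0.36 in mice 1 to 4. It rose 1.29-fold (0.36 ± 0.03, adjusted p = 0.00863), and the spread between mice was the smallest of any member. The value of mouse 4 was the average of -0.24 on its Cy5 array and 0.96 on its Cy3 array. The mean was above 0, as were 7 of 8 arrays. The 2 dye orientations agreed less, with a mean of 0.22 on the Cy5 arrays and 0.51 on the Cy3 arrays. The call was lost on the Cy5 arrays alone (adjusted p = 0.218), without the Cy3 array of mouse 4 (0.203) and with the mouse as a random block (0.067).

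Il1b, the gene of the inflammatory cytokine IL-1 beta, was the ligand that fell. It was at -0.17, -0.67, -0.78 and -0.38 in mice 1 to 4, below 0 on all 8 arrays. Its mean fell by 0.50 ± 0.28 (adjusted p = 0.0152). The call was lost without mouse 2 (adjusted p = 0.0635), without mouse 3 (0.0509) and on the Cy5 arrays alone (0.0577). Il1rn, the gene of the receptor antagonist that competes with IL-1, was at 0.03, -0.29, 0.00 and -0.39 and did not pass (mean -0.16, adjusted p = 0.228).

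Of the ligands that did not pass, Tnfsf8, which encodes CD30 ligand, had the largest mean and the widest range. It was at 0.94, -0.21, 0.37 and 1.02 in mice 1 to 4 (mean 0.53, adjusted p = 0.0761). Mouse 2 was the 1 mouse below 0, and without it Tnfsf8 passed (mean 0.78, adjusted p = 0.0185). Il24, a cytokine gene of the IL-10 family, was at 0.18, 0.28, 0.18 and 0.92 (mean 0.39, adjusted p = 0.0625). It was far higher in mouse 4 than in the others, at 0.38 on the Cy5 array of that mouse and 1.47 on the Cy3 array. It passed without the Cy3 array of mouse 4 (mean 0.25, adjusted p = 0.0299) and after quantile normalization (0.0288). Tnf, the gene of TNF itself, was at 0.20, 0.05, 0.14 and 0.58 (mean 0.24, adjusted p = 0.106). Il4, the cytokine gene of type 2 immunity, was at -0.26, 0.22, -0.30 and -0.25 (mean -0.15, adjusted p = 0.311). Il16, whose product attracts CD4+ cells, was at -0.12. Tnfsf12, which encodes TWEAK, was at 0.05, and Tnfsf13, which encodes the B cell factor APRIL, at 0.11 (adjusted p from 0.381 to 0.739 for these 3). On the Cy5 arrays alone Tnfsf13 passed (mean 0.27, adjusted p = 0.0357).

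Among the 19 receptor genes, 7 rose and 2 fell, which is 47.4% called, beside 31.8% of all named genes. The highest mean of all members was that of Il3ra, the ligand-specific chain of the IL-3 receptor. It was at 1.01, 1.04, 1.21 and 1.07 in mice 1 to 4, and its 8 arrays lay between 0.69 and 1.34. Il3ra rose 2.12-fold, with a mean of 1.08 ± 0.09 (SD, n = 4, adjusted p = 5.8e-04). Of all 8692 genes, 64 had a larger mean and 15 a smaller p. Over the 15 alternatives its adjusted p ran from 2.1e-05 to 0.00581.

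The IL-3 receptor signals through the common beta chain, which is shared with the receptors for GM-CSF and IL-5. Mice have 2 genes for it, Csf2rb and the IL-3-specific Csf2rb2, whose near-identical sequences can cross-hybridise. Csf2rb was at 1.15, 0.72, 0.87 and 1.02 in mice 1 to 4 and rose 1.92-fold (0.94 ± 0.19, adjusted p = 0.00118). Csf2rb2 was at 1.01, 0.60, 0.96 and 0.79 and rose 1.79-fold (0.84 ± 0.18, adjusted p = 0.00152). On all 8 arrays each of these chains was above 0. Il3, Il5, Csf2 and Il5ra are not analysed here.

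**Figure D2:**
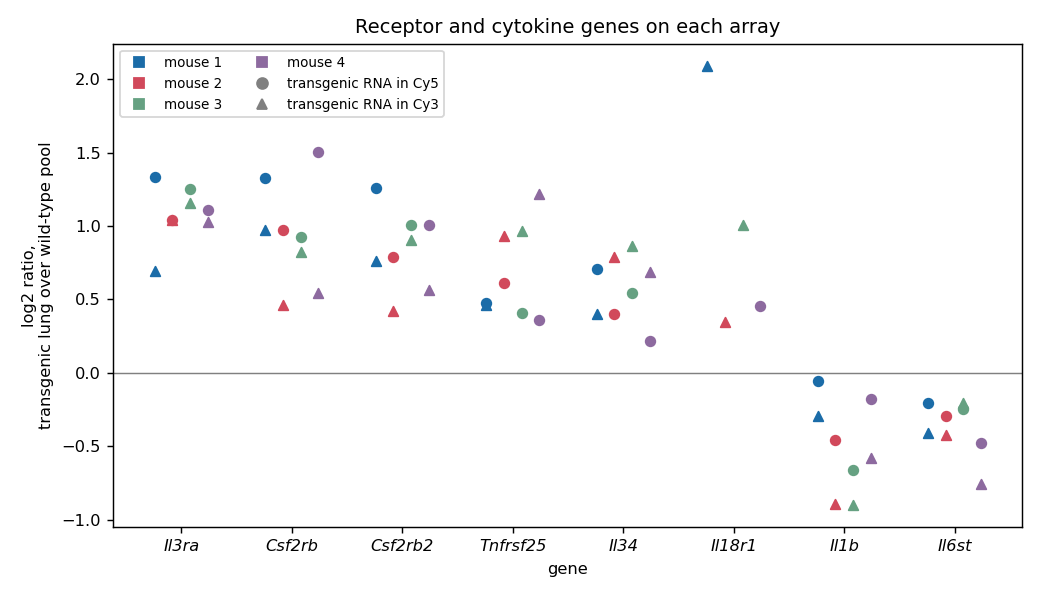
Log2 ratio of transgenic lung over wild-type pool (vertical axis) on each array for 6 members and the 2 beta chain genes Csf2rb and Csf2rb2; colours are the 4 mice, circles the arrays with transgenic RNA in Cy5 and triangles those with it in Cy3. Il3ra, Csf2rb and Csf2rb2 are above 0 on all 8 arrays, and Il18r1 has 4 points because the other 4 arrays gave no usable value.

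Il18r1 encodes the ligand-binding chain of the IL-18 receptor, found on T and NK cells among others. It was at 2.09, 0.35, 1.01 and 0.46 in mice 1 to 4, each from 1 array: the Cy3 array of mice 1, 2 and 3 and the Cy5 array of mouse 4. The other 4 arrays had 2 placeholder values and 2 missing values, and no other member lacked a value on any array. The mean was 0.97 ± 0.80 (adjusted p = 0.0296), with mouse 1 far above the rest. This call was lost without mouse 3 (adjusted p = 0.0671), without mouse 4 (0.0542), with the mouse as a random block (0.0845) and with the placeholders kept, where the mean became 4.58 (0.104). Il18bp, the gene of a secreted protein that binds and blocks IL-18, was also highest in mouse 1, at 1.21, against 0.03, 0.47 and 0.30 in mice 2, 3 and 4 (mean 0.50, adjusted p = 0.0677). It passed without mouse 2 (mean 0.66, adjusted p = 0.0489) and with the mouse as a random block (0.0348). T cell markers, higher in 4 and lower in 0 of 6 measured, had medians of 0.88, 0.25, 0.45 and 0.34 in the same mice. Their part in the Il18r1 and Il18bp values was not tested.

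The other interleukin receptor genes gave smaller ratios. Il17rc, which encodes a chain of the receptor for IL-17A and IL-17F, was at 0.25, 0.45, 0.28 and 0.28 in mice 1 to 4. It rose 1.24-fold (0.32 ± 0.09, adjusted p = 0.0178). With mouse 1, 2 or 3 left out it was not called (adjusted p = 0.0516 to 0.0794), nor on the Cy3 arrays alone (0.0655). Il17ra, the partner chain of Il17rc, was at 0.20, 0.17, 0.09 and 0.20, above 0 on 8 of 8 arrays, and did not pass (mean 0.16, adjusted p = 0.11). Il17rd, a related receptor also known as Sef, was at -0.39, -0.37, -0.11 and 0.35 (mean -0.13, adjusted p = 0.465). The 2 dye orientations gave it opposite signs, -0.43 on Cy5 and 0.16 on Cy3 arrays, and it passed as lower on the Cy5 arrays alone (adjusted p = 0.0117) and without the Cy3 array of mouse 4 (mean -0.38, adjusted p = 0.0232).

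Il6st encodes gp130, the signalling chain shared by receptors of the IL-6 family, and it was the interleukin receptor gene that fell. It was at -0.31, -0.36, -0.22 and -0.61 in mice 1 to 4, below 0 on all 8 arrays. The mean fell by 0.38 ± 0.17 (adjusted p = 0.0171), and the call was lost without mouse 1 (adjusted p = 0.0528) or mouse 2 (0.0577). Il2rb, the beta chain of the receptors for IL-2 and IL-15, was at 0.01, -0.57, -0.22 and -0.70 and did not pass (mean -0.37, adjusted p = 0.0583). It passed without mouse 1 (adjusted p = 0.0366), the 1 mouse not below 0, after quantile normalization (0.0482) and with the mouse as a random block (0.0357). Of 2 NK cell markers measured, Nkg7 had a mean of 0.00 and Gzma -1.09, and their medians were 0.81, -0.81, -0.63 and -1.54 in mice 1 to 4. Their part in the Il2rb values was not tested. Il27ra, a chain of the IL-27 receptor, had a mean of 0.00 (adjusted p = 0.988).

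Of the 11 TNF receptor genes, 4 rose and 1 fell (36.4% and 9.09%, beside 13.4% and 18.3% of all named genes). Tnfrsf25 encodes death receptor 3, a T cell costimulatory receptor for the ligand TL1A. It was at 0.47, 0.77, 0.69 and 0.79 in mice 1 to 4, above 0 on all 8 arrays, and rose 1.60-fold (0.68 ± 0.15, adjusted p = 0.00226). The Cy5 arrays gave a mean of 0.46 and the Cy3 arrays 0.90, and both orientations alone kept the call. Tnfrsf13b, which encodes the B cell receptor TACI, was at 0.54, 0.23, 0.49 and 0.26 and rose 1.30-fold (0.38 ± 0.16, adjusted p = 0.0152). Its call was lost without mouse 1 (adjusted p = 0.0717), without mouse 3 (0.058) and on the Cy3 arrays alone (0.212). B cell and plasma cell markers, higher in 4 and lower in 1 of 7 measured, had medians of 0.79, 0.40, 0.65 and 0.14 in these mice. Their part in the Tnfrsf13b values was not tested. Tnfrsf13c, which encodes the BAFF receptor of B cells, had a mean of -0.01 over probes at -0.14 and 0.12.

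Tnfrsf11a encodes RANK, the receptor that drives osteoclast formation. It was at 0.64, 0.15, 0.47 and 0.13 in mice 1 to 4 as the mean of 2 probes, and was called (0.35 ± 0.25, adjusted p = 0.0419). The probes disagreed: 1 had a mean of 0.82 (adjusted p = 0.0105 in the test over probes) and the other -0.13 (adjusted p = 0.3). Leaving out mouse 1, 2 or 3 ended the call of the gene (adjusted p = 0.0621 to 0.157), as did keeping the placeholders (0.0619) and using the Cy3 arrays alone (0.452).

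Tnfrsf1b, the gene of TNF receptor 2, was at 0.46, 0.18, 0.10 and 0.39 in mice 1 to 4 and above 0 on all 8 arrays. It rose 1.22-fold (0.28 ± 0.17, adjusted p = 0.0448). The call was lost without any 1 of the 4 mice (adjusted p = 0.0531 to 0.175), on the arrays of either dye orientation alone (0.123 on Cy5 and 0.0597 on Cy3), without the Cy3 array of mouse 4 (0.0546) and with the placeholders kept (0.0578). Tnfrsf1a, the gene of TNF receptor 1, was at 0.16, -0.08, -0.05 and -0.32 (mean -0.07, adjusted p = 0.573). Tnfrsf19, which encodes the receptor TROY, was the TNF receptor gene that fell. It was at -0.43, -0.43, -0.15 and -0.14, a fall by 0.29 ± 0.16 (adjusted p = 0.0393). It was not called with mouse 1, 2 or 3 left out (adjusted p = 0.061 to 0.154), on the Cy5 arrays alone (0.15), without the Cy3 array of mouse 4 (0.0695), with the placeholders kept (0.0506) or after centring each array on its median (0.0504).

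The remaining TNF receptor genes did not pass. Tnfrsf18, which encodes the T cell receptor GITR, was at 0.31, 0.01, 0.51 and 0.19 (mean 0.25, adjusted p = 0.0817). Tnfrsf21, which encodes death receptor 6, was at 0.07, 0.47, 0.05 and 0.18 (mean 0.19, adjusted p = 0.152). Tnfrsf4, which encodes OX40, had a mean of 0.05, and Tnfrsf12a, which encodes the TWEAK receptor Fn14, a mean of -0.04.

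Ligands and receptors were then set side by side. The ligand median was 0.18 and the receptor median 0.16, beside -0.01 over all named genes. In mice 1 to 4 the ligand medians were 0.20, 0.13, 0.16 and 0.09, and the receptor medians 0.25, 0.06, 0.05 and 0.18. Receptors had the higher median in mice 1 and 4 and ligands in mice 2 and 3, so the order of the 2 roles differed between mice. Means were above 0 for 7 of 10 ligands and 12 of 19 receptors. The medians moved by less than the spread between mice under every alternative that gave one.

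**Figure D3:**
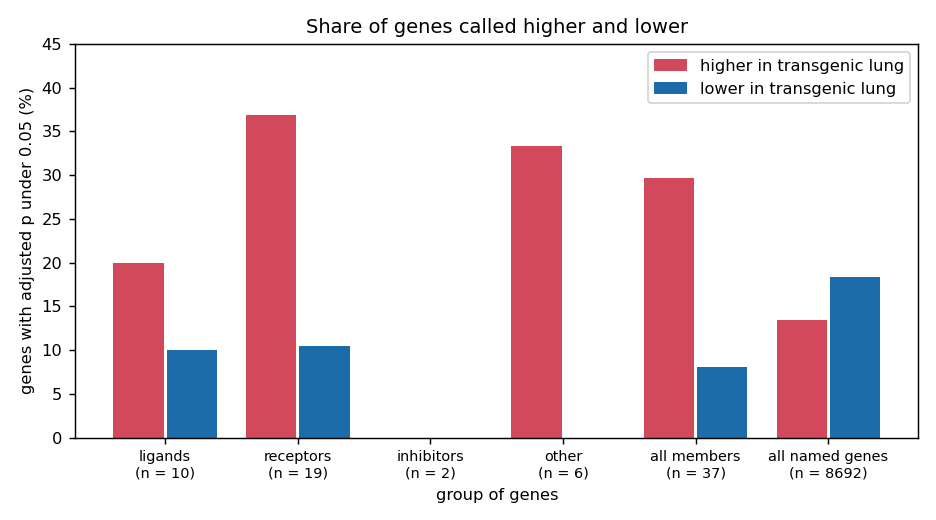
Percent of genes called higher (red) and lower (blue) in transgenic lung, by role, for all members and for all named genes, with the number of genes tested under each pair of bars. Receptors have 36.8% higher and 10.5% lower, ligands 20.0% and 10.0%, and all named genes 13.4% and 18.3%.

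Where a ligand and its receptor were both among the members, their values did not follow 1 pattern. For TNF, the ligand gene was at 0.24, Tnfrsf1b at 0.28 with a call and Tnfrsf1a at -0.07. TWEAK and its receptor gave 0.05 for Tnfsf12 and -0.04 for Tnfrsf12a, neither with a call. For APRIL and TACI, Tnfsf13 was at 0.11 without a call and Tnfrsf13b at 0.38 with one. In the TNF superfamily under other symbols, Ltb was at 0.73 with a call and its receptor gene Ltbr at -0.02 without one. Fasl was at -0.30 with a call and its receptor gene Fas at -0.20 without one. The ligand-receptor differences themselves were not tested.

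Of the 6 genes named after the families, Il4i1 and Tnfaip2 rose, which is 33.3% called, near the 31.8% of all named genes. Il4i1 encodes a secreted amino acid oxidase of antigen-presenting cells and was first found as a gene induced by IL-4. It was at 0.39, 0.27, 0.32 and 0.37 in mice 1 to 4, above 0 on all 8 arrays (0.34 ± 0.05, adjusted p = 0.0115). Its 3 probes had means of 0.00, 0.32 and 0.70, and the probe at 0.00 lies in a block of probe numbers where the match of names was weak. The call was lost without mouse 1 (adjusted p = 0.0591) and on the Cy3 arrays alone (0.0545). Tnfaip2, a gene induced by TNF, was at 0.37, 0.14, 0.15 and 0.36 (0.25 ± 0.13, adjusted p = 0.0471). It was not called without any 1 of the mice (adjusted p = 0.0793 to 0.177), on the Cy3 arrays alone (0.174) or with the placeholders kept (0.0547), and neither of its 2 probes passed alone (0.213 and 0.26).

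Tnfaip8l2, which encodes the immune regulator TIPE2, was at 0.44, 0.26, 0.44 and 0.02 and did not pass (mean 0.29, adjusted p = 0.0523). It passed without mouse 4 (adjusted p = 0.026), without the Cy3 array of that mouse (0.0234), after centring (0.0383) and after quantile normalization (0.0318). Tnfaip8, Tnfaip8l1 and Tnfaip1 had means of 0.14, -0.01 and -0.02.

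The 9 members with several probes show how far a gene value depends on its probe. None had probes called in opposite directions, while 5 had probe means of both signs: Il16, Tnfaip1, Tnfaip8, Tnfrsf11a and Tnfrsf13c. Il6st had probes at -0.48 and -0.27, of which the first passed (adjusted p = 0.0101) and the second did not (0.116). Among the probes of these 9 members, the widest spread over mice was that of a Tnfaip1 probe, at -0.47 in mouse 1 and 1.24 in mouse 4. With the probe as the unit, 12 of 49 member probes were called (10 higher and 2 lower). That share is near the 25.7% called among all 20621 probes tested, whose split into higher and lower is not given here.

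**Figure D4:**
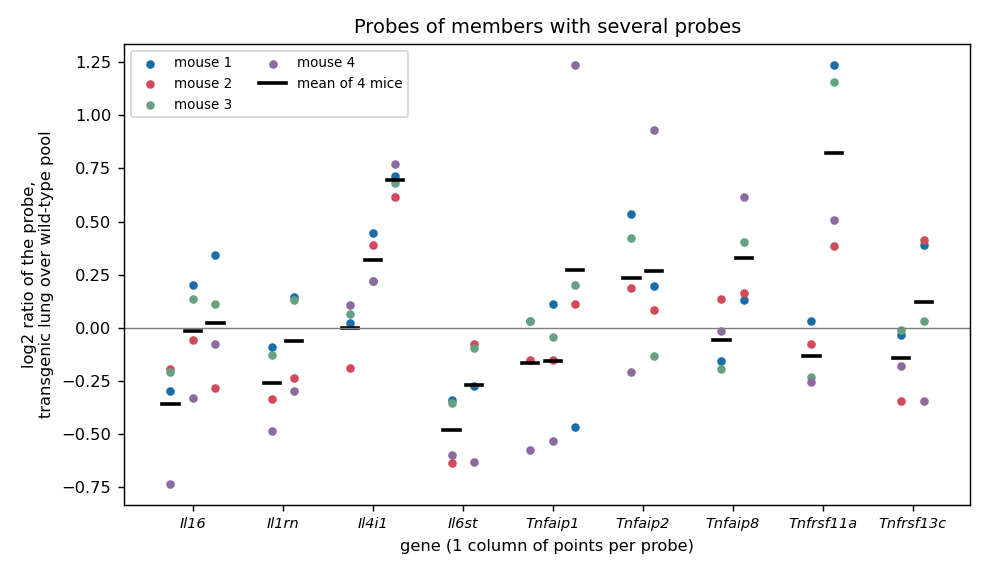
Log2 ratio of transgenic lung over wild-type pool (vertical axis) for each probe of the 9 members with 2 or 3 probes; coloured points are the 4 mice and black bars the mean. The probes of Tnfrsf11a have means of -0.13 and 0.82, and those of Il4i1 means of 0.00, 0.32 and 0.70.

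Among individual mice, none of the 36 members measured on all 8 arrays differed by the limma F test over mice, beside 2.74% of named genes, and 5 of the 36 did at an unadjusted p under 0.05, as did 1772 of 8645 named genes. The lowest adjusted p was that of Il18bp (0.0746). Mouse 1 was the highest of the 4 for 19 of 37 members, beside 26.7% of all named genes, and mouse 4 the lowest for 12 of 37, beside 41.3%. The same sign in 4 of 4 mice was found for 21 of 37 members, beside 51.7% of named genes, and on 8 of 8 arrays for 11 of 37, beside 27.7%. Both shares were near those of all named genes.

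No member showed a dye effect by limma, beside 0% of named genes, and 8 of the 36 did at an unadjusted p under 0.05, as did 2299 of 8645 named genes. The Cy5 and Cy3 means had 1 sign for 27 of 37 members, among them all 14 called ones, beside 71.5% of named genes. A call on the average of both orientations already favours 1 sign. For Il18r1 the Cy5 and Cy3 means come from different mice. The Cy5 means of Tnfrsf11a and Tnfrsf13b were 0.53 and 0.55, and their Cy3 means 0.16 and 0.21. Tnfrsf1a was at 0.16 on Cy5 and -0.30 on Cy3 arrays.

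**Figure D5:**
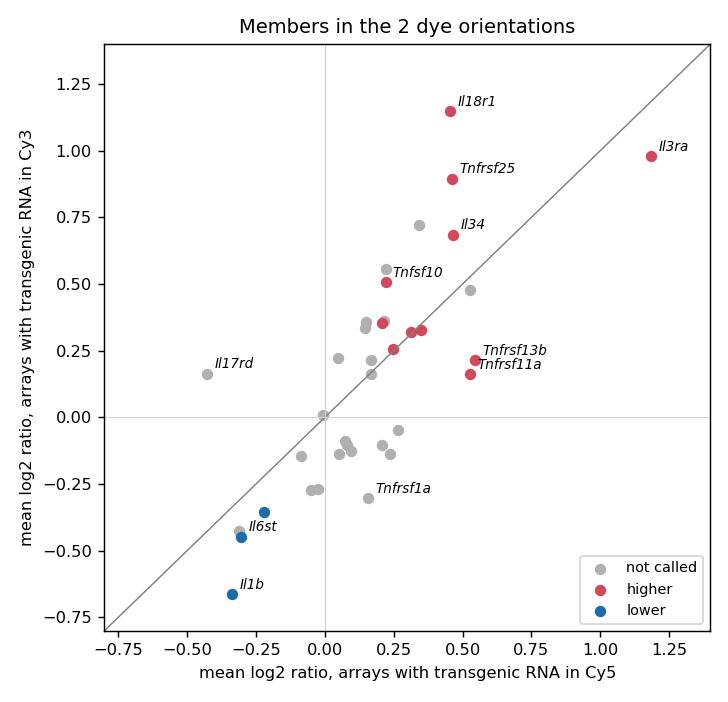
Mean log2 ratio of each member on the arrays with transgenic RNA in Cy5 (horizontal axis) against that on the arrays with it in Cy3 (vertical axis), coloured by call; the diagonal marks equal values. Il3ra lies at 1.18 and 0.98 and Tnfrsf25 at 0.46 and 0.90, while Il17rd lies at -0.43 and 0.16.

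Further genes of the pathways were read from lists chosen for this purpose, and the share of each list that was called is set beside the 31.8% of all named genes. In the list of the TNF superfamily under other symbols, 7 were measured, 3 rose and 1 fell. The 3 include Pglyrp1, a peptidoglycan recognition gene that does not encode a TNF superfamily protein. Ltb, which encodes lymphotoxin beta, was at 1.02, 0.51, 0.75 and 0.65 in mice 1 to 4 (0.73 ± 0.21, adjusted p = 0.00281). The TNF receptor gene Relt rose by 0.49 ± 0.16 (adjusted p = 0.00667) and the peptidoglycan recognition gene Pglyrp1 by 1.11 ± 0.32 (adjusted p = 0.00168). Fasl, the gene of Fas ligand, fell by 0.30 ± 0.11 (adjusted p = 0.0223). It was not called with mouse 1, 2 or 3 left out (adjusted p = 0.0708 to 0.0917) or on the Cy5 arrays alone (0.057). The list, with Pglyrp1 in it, had 57.1% called and a median of -0.02.

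TRAF, death domain and kinase adaptors rose in 2 and fell in 0 of 12 genes (16.7% called, below the share of all named genes; median 0.00). The adaptor genes Traf5 (0.53 ± 0.20) and Traf2 (0.31 ± 0.13) rose. Traf2 was not called without mouse 1 (adjusted p = 0.0982), without mouse 2 (0.1) or on the Cy3 arrays alone (0.466), and Traf5 was not called on the Cy5 arrays alone (0.0738) or without the Cy3 array of mouse 4 (0.0578). NF-kappa-B subunits and regulators rose in 3 and fell in 0 of 15 (20% called, also below it; median 0.17). The kinase gene Ikbke rose by 0.60 ± 0.13 (adjusted p = 0.003), the nuclear cofactor gene Bcl3 by 0.52 ± 0.14 (adjusted p = 0.00484) and Nfkb2, the subunit gene of the non-canonical pathway, by 0.30 ± 0.06 (adjusted p = 0.0173). Nfkb2 was the mean of probes at 0.06 and 0.55, and it was not called without mouse 1, 2 or 3 (adjusted p = 0.0598 to 0.0761) or on the Cy5 arrays alone (0.0831).

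Genes of JAK kinases, STAT factors and SOCS feedback inhibitors were listed together with PIAS and phosphatase genes. Of 19 measured, 6 were higher and 4 lower (52.6% called, median 0.11). The lower ones were Stat5b, Ptpn11, Pias2 and Pias3, and no JAK or SOCS gene was called lower. Socs1, an inhibitor of JAK kinases, lay between 0.55 and 1.52 in the 4 mice and above 0 on all 8 arrays (0.91 ± 0.46, adjusted p = 0.00726). The phosphatase gene Ptpn11 fell by 0.82 ± 0.16 (adjusted p = 0.00138) and Stat5b by 0.72 ± 0.27 (adjusted p = 0.00459). Cish, a feedback inhibitor induced by STAT5, rose by 0.42 ± 0.18 (adjusted p = 0.0121) and was not called without mouse 1 (0.0556) or on the Cy3 arrays alone (0.13).

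Of 13 adaptor and related genes of IL-1 and toll-like receptors, 4 were higher and 1 lower (38.5% called, near the share of all named genes; median 0.25). The inhibitory receptor gene Sigirr (0.41 ± 0.16), the adaptor gene Ticam1 (0.37 ± 0.13) and the pore-forming gene Gsdmd (0.31 ± 0.16) rose, and the inflammatory caspase gene Casp4 fell by 0.91 ± 0.36 (adjusted p = 0.004). Sigirr was not called without mouse 1 (adjusted p = 0.0554) or on the Cy5 arrays alone (0.0931), and Ticam1 not without mouse 1 or 2 (0.0617 and 0.0597). Gsdmd was not called without mouse 1, 2 or 3 (0.0603 to 0.134) or on the Cy3 arrays alone (0.26). Of related cytokine and receptor genes outside the Il symbols, 3 rose and 3 fell among 11 (54.5% called, median 0.04). Beside both beta chain genes, Clcf1, a cytokine gene of the gp130 group, rose by 0.41 ± 0.25 (adjusted p = 0.0228). It was not called without mouse 2, 3 or 4 (0.0549 to 0.0631) or on the Cy3 arrays alone (0.198). Ifngr1, the ligand-binding chain of the interferon gamma receptor, was at -1.16, -1.11, -0.77 and -1.48 and fell by 1.13 ± 0.29 (adjusted p = 0.00134).

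Response genes of 2 cytokine groups were listed as well. Of 13 genes known to respond to IL-4 and IL-13 in lung, 10 were higher and 2 lower (92.3% called, median 1.42). The highest were Retnla at 5.96, Ccl8 at 4.59, Chil3 at 4.43 and Slc26a4 at 2.86. The 2 lower ones were Postn at -1.08 and Gata3 at -0.43. The Il4 probe itself had a mean of -0.15, and Il13, Il4ra and Il13ra1 are not analysed here. Of 9 genes known to respond to TNF and IL-1, 3 were higher and 3 lower (66.7% called, median 0.00). Saa3 (2.94 ± 0.61) and Lcn2 (0.93 ± 0.41, over probes at -0.52 and 2.38) rose, and Vcam1 (-0.52 ± 0.25) and Ier3 (-0.50 ± 0.23) fell. Their members were chosen with these values known, so the counts are no independent evidence of a direction.

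Markers of other cells were read in the same lungs, beside 31.8% called among all named genes (13.4% higher and 18.3% lower). Alveolar type 2 and club and ciliated cell markers had 20% called, eosinophil and mast cell 28.6%, endothelial 33.3% and fibroblast markers 37.5%. These shares were near or below that of all named genes. The other lists given here had 57.1% to 100% called. T cell, B cell and plasma cell, and NK cell markers, given above, had 66.7%, 71.4% and 50%. Of 10 macrophage markers measured, 6 were higher and 2 lower, with mouse medians of 0.65 to 1.11, and of 9 neutrophil markers, 4 were higher and 3 lower. Heart and skeletal muscle markers were lower in 9 of 9, and fat markers lower in 6 and higher in 0 of 8. Of 7 eosinophil and mast cell markers 1 was higher and 1 lower, with a median of 0.06. Among cells of the lung itself, alveolar type 1 markers were lower in 4 and higher in 0 of 5 (median -0.55), fibroblast markers lower in 3 and higher in 0 of 8, and smooth muscle markers lower in 3 and higher in 1 of 5. Alveolar type 2 markers were lower in 0 and higher in 1 of 5, club and ciliated cell markers lower in 1 and higher in 0 of 5, endothelial markers lower in 1 and higher in 2 of 9, and mesothelial markers lower in 0 and higher in 2 of 3. Of 7 dendritic cell markers, 3 were higher and 1 lower. Which of the member values follow these cells was not tested.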

How the data were processed

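The deposited values are log2 ratios made by the authors, 1 per probe and array; no source used here gives their background correction, normalization or centring. Placeholders (498 values beyond 10 in size) were set to missing, and 706 values were missing as deposited. Annotation probe number plus 11 gave the row of the value table, for numbers up to 20237: probes of the same gene then correlated at 0.224 (Spearman, 4802 pairs), against at most 0.0143 at 5 other offsets. Symbols follow the RefSeq table of GRCm38.p6.

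Arrays of a mouse were averaged, then probes of a gene, and the gene ratios were set against 0 by limma's moderated two-sided test (version 3.58.1 under R 4.3.3, prior degrees of freedom 4.26). Differences between mice were tested with limma's F statistic, all 8 arrays and a dye term, and dyes by limma on within-mouse differences. Python 3.11.15 was used for tables and plots.

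The members, roles and lists were chosen with earlier results of these data known. The genes named are all called members, the 4 largest others of each role, and the 4 largest called of each pathway list. All other members are named too, as are Fas and Ltbr, the receptor genes of Fasl and Ltb. Pias2, Pias3, Postn and Gata3 are named as lower genes of their lists. The markers named (Sftpb, Sftpc, Nkg7 and Gzma) were chosen after their values were seen. Alternatives left out single mice, 1 dye orientation or weakly matched probe blocks, kept the placeholders, or changed the centring, normalization, probe summary or block. The number of mice and the single pool limit the precision.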

Additional observations from a re-analysis of the deposited data

Results flagged for a closer look

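In groups of 4 mice, the value farthest from the others was tested by its gap relative to the whole range (Dixon), which chance passes in about 1 of 20 groups. Of the 37 members, 3 had such a value, and the share among all named genes is not given here. Il24 was at 0.92 in mouse 4, against 0.18 to 0.28 in the other 3 mice. That value was the average of 0.38 on the Cy5 array and 1.47 on the Cy3 array, the array that stood apart. Il4 was at 0.22 in mouse 2, against -0.30 to -0.25 in the others. Its Cy5 array in mouse 2 was at 0.47 and its Cy3 array at -0.02. Il17rc was at 0.45 in mouse 2 (0.42 on Cy5 and 0.49 on Cy3), against 0.25 to 0.28 in the others. The gaps were 0.862, 0.899 and 0.841 of the range.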

How the results depend on the processing

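Of the 14 called members, 3 (Il3ra, Tnfrsf25 and Il34) kept direction and call under all 15 alternatives, and no called member changed sign. Leaving out 1 mouse gave 5 to 9 higher and 0 to 3 lower members, 2 to 3 higher and 0 to 1 lower ligands, 2 to 5 higher and 0 to 2 lower receptors, and 604 to 952 higher and 948 to 1207 lower named genes. It also gave 5 to 369 genes differing between mice, against 237 with all mice and 104 with no dye term. On the Cy3 arrays alone 4 members, 2 receptors and 682 named genes were higher. On the Cy5 arrays alone 9 members, 5 receptors and 1400 named genes were higher, and 0 ligands were lower. With placeholders kept, 7 members and 4 receptors were higher and 1 receptor was lower. Centring on the median left 1 receptor lower, as did the probe as the unit. With the mouse as a random block and a dye term, 1 ligand was higher. The causes of these changes were not tested. No paired analysis was possible because there is 1 group, set against 1 pool. The arrays give no signal over background here, so what dim spots limit is unknown. Leaving out the Cy3 array of mouse 4 was chosen after seeing the data.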
